A study of Mus musculus with 18 samples.

Results

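The miR-29 family was followed through small RNA sequencing of mouse kidney. The table of counts was searched for 5 family names, the 3p arms mmu-miR-29a-3p, mmu-miR-29b-3p and mmu-miR-29c-3p and the 5p arms mmu-miR-29a-5p and mmu-miR-29c-5p (the mouse prefix is left out from here on). All 5 were found, on 6 of the 1184 named entries, because miR-29b-3p stood on 2 entries of identical values and was counted once. The 2 other 5p arms of the family, miR-29b-1-5p and miR-29b-2-5p, were also in the table and are given beside the members. Every one of the 7 names passed the filter on low counts that kept 619 entries.

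The series has 18 kidney libraries in 3 groups of 6. Control mice were C57BL/6J that received 0.9% saline. Mice with diabetic nephropathy (DN) were C57BL/KsJ on the same saline, and treated mice were C57BL/KsJ with DN that received germacrone, a sesquiterpene of plant oils, at 10 mg/kg/day. The labels give no age, sex, genotype or duration of treatment. Since control mice are of another strain, strain and disease cannot be told apart wherever control is one side. Saline is named for control and DN mice but not for treated mice. In treated against DN, germacrone and that difference cannot be told apart. The labels also do not say that libraries came from separate animals. Each p-value is therefore relative to the spread among these samples alone, and that spread may be technical.

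A miRNA hairpin is cut into a duplex with a 5p and a 3p arm, of which one is usually kept in the silencing complex and the other degraded. The kept arm pairs with messenger RNAs through its seed, bases 2 to 8 from the 5′ end, and lowers their stability and translation. The 3p arms of miR-29 are the kept arms, and they are best known for restraining collagens, elastin, fibrillin and other matrix genes, which build up in the glomeruli and interstitium of the diabetic kidney. TGF-beta signalling is known to lower miR-29 in kidney cells. No messenger RNA was measured here, so the working name of the family as one that restrains matrix genes could not be checked in these libraries.

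The mature sequences below, from RefSeq (GRCm38.p6), are shown because the seed groups the 3p arms together and sets the 5p arms apart. All 7 names matched the RefSeq table. Capitals mark the seed.

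miR-29a-3p: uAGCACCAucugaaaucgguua

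miR-29c-3p: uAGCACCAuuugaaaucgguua

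miR-29b-3p: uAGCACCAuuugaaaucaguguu

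miR-29a-5p: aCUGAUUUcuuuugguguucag

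miR-29c-5p: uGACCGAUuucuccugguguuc

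miR-29b-1-5p: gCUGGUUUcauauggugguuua

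miR-29b-2-5p: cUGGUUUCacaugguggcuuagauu

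The 3p arms shared the seed AGCACCA, which was held by 3 of the 1679 mature mouse names in the RefSeq table, all of them miR-29. Counting from 1 at the 5′ end, miR-29a-3p and miR-29c-3p differed by a single substitution, C10U. From miR-29c-3p to miR-29b-3p the substitutions were G18A, U21G and A22U, and miR-29b-3p was longer by 1 base. None of the 5p arms shared a seed with another, and miR-29b-2-5p shared its seed with miR-6338. In the deposited counts the 3p arms had values that were not whole in 14 or 15 of 18 libraries, and the 5p arms in 0, and the sources used here do not say how such values arose. Since the 3p arms are near-identical, the split of reads between them is uncertain.

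The family comes from 4 hairpins in 2 pairs (GRCm38.p6). Mir29a at chr6:31062660-31062747 and Mir29b-1 at chr6:31063023-31063093 lie on the minus strand with 275 bases between them. Mir29b-2 at chr1:195037040-195037120 and Mir29c at chr1:195037547-195037634 lie on the plus strand with 426 bases between them. In the GENCODE M21 annotation of GRCm38, both chromosome 1 hairpins fall in an exon of the long noncoding RNA A330023F24Rik on the same strand and in an exon of Cd46, a complement regulator, on the opposite strand. Mir29b-1 overlaps an exon of the lincRNA Gm27019 (chr6:31063092-31063495) only at the very edge of the hairpin, and Mir29a overlapped no other annotated gene. Both b hairpins give the same miR-29b-3p, so its counts could not be assigned to a chromosome, whereas their 5p arms differ and could. The Mir29c hairpin is shown with both arms in capitals because its arms gave the largest difference between groups among the arm ratios below.

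Mir29c: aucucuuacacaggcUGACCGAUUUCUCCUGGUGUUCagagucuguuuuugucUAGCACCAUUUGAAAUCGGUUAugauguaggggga

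The letters TGGTGCT, the DNA form of a perfect match to the seed, were searched on the transcript strand of the longest 3′ UTR of each gene in GENCODE M21. They were present in 2758 of 21039 genes, or 13.1%, and in 11 of 15 matrix genes. The 15 genes were taken as known matrix genes and known miR-29 targets, so their count is a description and not independent evidence. Matches were denser in the matrix genes, with 0.937 per kilobase against 0.106 over all genes, and 3 of the 15 had at least 3 matches, against 0.395% of all genes. Col5a1 held 4 matches and Col4a5 and Eln held 3 each, while Col1a2, Fn1, Nid1 and Sparc held 0. A window of 29 bases from each of 4 genes shows what the 3p arms would pair with; capitals mark the match.

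Col1a1, fibrillar collagen I, chr11:94952517-94952545, plus strand: ggtggggtgggaaggaatttcTGGTGCTa

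Col3a1, fibrillar collagen III, chr1:45348961-45348989, plus strand: tccaacttcaaaatgtctcaaTGGTGCTa

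Col4a5, basement membrane collagen IV, chrX:141688232-141688260, plus strand: ctttaccactgctcccaccaaTGGTGCTa

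Eln, elastin, chr5:134703489-134703517, minus strand: gtctccatctccaagggaaatTGGTGCTa

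Before the groups are compared, the libraries themselves are described. Control libraries held 3700672 to 6654035 counts over all entries, DN libraries 3645173 to 7239343 and treated libraries 3657879 to 5972069. Levels are CPM, counts brought to a common library size, here after TMM scaling. The libraries least like their group were DN 2, DN 3 and control 2, with a median r of log2 CPM of 0.889, 0.920 and 0.944 with its other libraries, and 0.961 to 0.971 for the remaining 15. The summed level of 8 kidney miRNAs (miR-192-5p, miR-194-5p, miR-204-5p, miR-30a-5p and others) was 129109 to 268488 CPM in 17 libraries and 70488 in DN 2, so kidney markers were abundant throughout and lowest in DN 2. In DN 2, 6 leukocyte miRNAs summed to 23150 CPM (other DN libraries 1345 to 1906) and 5 fibroblast and pericyte miRNAs to 9772 CPM (other DN libraries 2681 to 3256). The leukocyte sum was 2789 to 3708 CPM in control libraries, above every DN library but DN 2, and 8492 CPM in treated 6 against a treated median of 1664. The sum of both arms of the endothelial miR-126a was lowest in DN 2 (8007), DN 3 (8034) and control 2 (9172 CPM). The fold changes and ratios described for the family are also given without DN 2, DN 3 and control 2. These 3 were chosen with these data known, and leaving out unlike libraries lowers the spread within groups. P-values from those fits are therefore a description and may be too small. In whole kidney, fewer cells of a type and less RNA per cell cannot be told apart.

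By counts, nearly all miR-29 in these libraries was miR-29a-3p. Its mean level over the 18 libraries was 21041 ± 2803 CPM (SD, n = 18), rank 14 of 532 entries with distinct values. miR-29c-3p followed at 809 ± 274 CPM (rank 83) and miR-29b-3p at 492 ± 182 CPM (rank 111). The 5p arms were scarcer: miR-29c-5p averaged 83.9 CPM, miR-29b-2-5p 63.4, miR-29a-5p 34.1 and miR-29b-1-5p 8.51 CPM. All of these are mature RNAs of 22 to 25 bases, so no correction for length was made. Different entries are compared by counts alone, and how closely counts follow their abundance in kidney was not tested.

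Of the summed CPM of the 5 members, miR-29a-3p made up 93.8% ± 1.57 (range 90.8% to 95.9%), miR-29c-3p 3.54% ± 0.954 and miR-29b-3p 2.18% ± 0.671 (SD, n = 18). miR-29c-5p made up 0.376% and miR-29a-5p 0.152%. The order of the 3p arms was the same in nearly every library. miR-29a-3p exceeded miR-29c-3p in 18 of 18 libraries, and miR-29c-3p exceeded miR-29b-3p in 17, the exception being DN 2. Among the 5p arms, neighbours changed places more often: miR-29c-5p exceeded miR-29b-2-5p in 15 of 18 libraries, and miR-29b-2-5p exceeded miR-29a-5p in 15. Of the 2 distinguishable b arms, miR-29b-2-5p from chromosome 1 exceeded miR-29b-1-5p from chromosome 6 in 18 of 18 and was 87.9% ± 4.30 of their sum (range 75.8% in DN 2 to 93.5% in DN 1).

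The imbalance of counts between arms differed between hairpins. Within a library, the miR-29a-3p level was 707 times that of miR-29a-5p on average, from 429 to 2046 times, and that of miR-29c-3p was 9.97 times that of miR-29c-5p, from 4.34 to 14.5 times. By counts, the scarcer arm of Mir29c was therefore much nearer to its partner than was the case for Mir29a. The summed level of the 5 members was 22620 ± 1750 CPM in control, 20948 ± 3599 in DN and 23811 ± 3317 in treated libraries (SD, n = 6 each), and these group ranges overlapped.

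**Figure D1:**
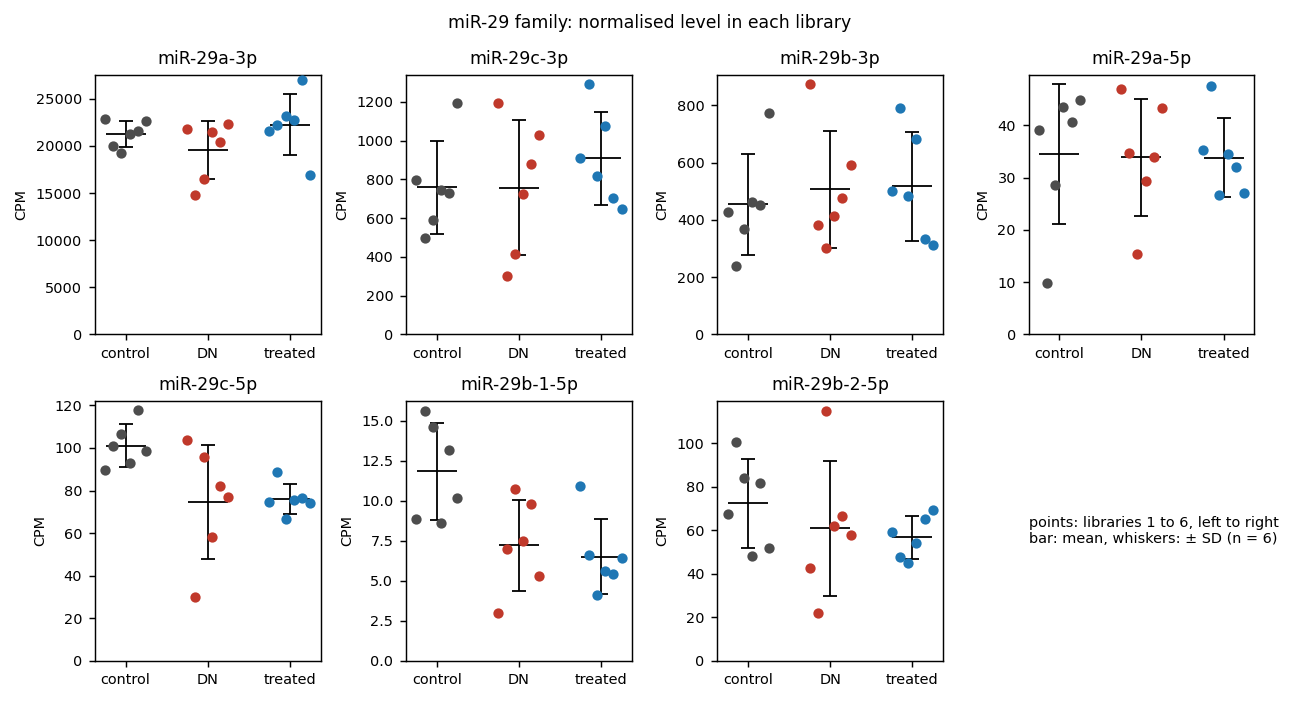
Level of each miR-29 entry (y axis, CPM after TMM scaling, each panel from 0) in the control, DN and treated groups; points are libraries 1 to 6 from left to right, the bar is the mean and the whiskers are the SD (n = 6). The 3p arms overlap between all groups, while the treated libraries of miR-29c-5p, at 66.5 to 88.8 CPM, lie below every control library, at 89.7 to 118 CPM.

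miR-29a-3p, the dominant member, was lowest at 19300, median 21427 and highest at 22858 CPM in control libraries. In DN the lowest, median and highest were 14848, 20954 and 22346 CPM. In treated libraries they were 16907, 22486 and 26977 CPM. The low end of DN was DN 2 and DN 3 (14848 and 16549 CPM), both below every control library, and the other 4 DN libraries lay at 20383 to 22346 CPM, inside the control range. Among treated libraries, treated 6 was the lowest, as it was for the other 3p arms, and treated 5 was the highest of the series. All 3 groups overlapped. By mean level the order was treated, control, DN, with control and treated closer than the SD of either and control and DN closer than the SD of DN.

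miR-29c-3p, which differs from miR-29a-3p by C10U alone, had a lowest, median and highest value of 496, 738 and 1196 CPM in control libraries. In DN these were 304, 803 and 1194 CPM, and in treated libraries 645, 864 and 1292 CPM. The ranges overlapped throughout, with DN 2 (304 CPM) and DN 3 (415 CPM) the lowest of all 18. Its coefficient of variation within groups was 26.7% to 45.8%, against 6.66% to 15.9% for miR-29a-3p.

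miR-29b-3p, the product of hairpins on both chromosomes, was at 238, 439 and 774 CPM (lowest, median and highest) in control libraries, at 303, 444 and 875 in DN and at 311, 491 and 790 CPM in treated libraries. The lowest library was control 2 and the highest DN 1, and the 3 groups overlapped nearly completely.

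miR-29a-5p, the scarce partner of the dominant member, was at 9.77, 39.9 and 44.9 CPM (lowest, median and highest) in control libraries, 15.3, 34.3 and 47.0 in DN and 26.7, 33.3 and 47.6 CPM in treated libraries. The 2 lowest values were those of control 2 and DN 3, and the medians differed by less than the SD within each group.

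miR-29c-5p was the member whose groups lay farthest apart. Its lowest, median and highest levels were 89.7, 99.6 and 118 CPM in control libraries, 30.1, 79.7 and 104 in DN and 66.5, 75.1 and 88.8 CPM in treated libraries. After TMM scaling each treated library lay below each control library, the nearest being treated 2 (88.8 CPM) and control 1 (89.7 CPM). DN lay between and below: DN 1 (104 CPM) and DN 3 (95.7 CPM) were inside the control range, and DN 2 (30.1 CPM) was the lowest of the series.

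The 2 b-type 5p arms, which are not members, had their highest medians in control. miR-29b-1-5p was at 8.58, 11.7 and 15.6 CPM (lowest, median and highest) in control libraries, 2.96, 7.23 and 10.7 in DN and 4.08, 5.99 and 10.9 CPM in treated libraries. miR-29b-2-5p was at 48.2, 74.8 and 101 CPM in control libraries, 21.8, 59.99 and 115 in DN and 44.9, 56.6 and 69.5 CPM in treated libraries. Both overlapped between groups, and the DN extremes of miR-29b-2-5p were DN 2 (lowest) and DN 3 (highest).

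DN against control asked whether the kidney miRNAs differ in diabetic nephropathy. None of the 5 members passed the threshold (adjusted p under 0.05, edgeR's quasi-likelihood test with Benjamini-Hochberg adjustment over 619 entries), and neither did any other entry of the table (0.0%). At an unadjusted p under 0.05, 0 of 5 members passed, against 7.59% of all entries. The 3p arms were all near the control level: the log2 fold change was −0.12 for miR-29a-3p (SE 0.130, interval −0.39 to 0.15, adjusted p = 0.869 by edgeR), −0.00 for miR-29c-3p (SE 0.297) and 0.16 for miR-29b-3p (SE 0.301). For the scarcer 3p arms the 95% interval was wider, from −0.63 to 0.62 for miR-29c-3p and from −0.47 to 0.79 for miR-29b-3p. Without control 2, DN 2 and DN 3 the values were −0.02 for miR-29a-3p, 0.22 for miR-29c-3p and 0.23 for miR-29b-3p.

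The 4 5p arms all had a log2 fold change below 0 in that comparison, without passing the test, where 56.5% of all entries were above 0. miR-29c-5p had a log2 fold change of −0.44 (SE 0.224, interval −0.91 to 0.03, adjusted p = 0.618 by edgeR), with 5 of 6 DN libraries below the control median. Without DN 2 its log2 fold change was −0.25 (adjusted p = 0.576), so DN 2 moved it by more than any other library did. DN 2 was also the library with the highest leukocyte and fibroblast sums, whose part in the value was not tested. The value for miR-29b-1-5p was −0.71 (unadjusted p = 0.0371, adjusted p = 0.589 by edgeR), with 6 of 6 DN libraries below the control median. miR-29b-2-5p stood at −0.25 and miR-29a-5p at −0.02. The sign of miR-29a-5p was not stable, at −0.14 to 0.13 as each library was left out in turn. Single libraries moved miR-29b-2-5p widely, to −0.03 without DN 2, −0.08 without control 2 and −0.53 without DN 3. Without these 3 libraries together the log2 fold changes were −0.36 for miR-29c-5p, −0.81 for miR-29b-1-5p, −0.25 for miR-29b-2-5p and −0.05 for miR-29a-5p.

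Treated against DN asked whether germacrone moves these miRNAs away from their level in DN. None of the 5 members passed the edgeR test, nor did any entry (0.0%), and at an unadjusted p under 0.05 there were 0 of 5 members against 3.72% of all entries. The log2 fold change was 0.19 for miR-29a-3p (SE 0.130, interval −0.09 to 0.46, adjusted p = 0.800 by edgeR), with 5 of 6 treated libraries above the DN median. The 3p arms were above 0 in 3 of 3, against 42.2% of all entries. For miR-29c-3p it was 0.26 (SE 0.297, adjusted p = 0.880 by edgeR) and for miR-29b-3p 0.03. These values depended on the libraries included: without control 2, DN 2 and DN 3 they were 0.04 for miR-29a-3p, −0.09 for miR-29c-3p and −0.20 for miR-29b-3p. Libraries outside these 3 also mattered, as miR-29a-3p was at 0.08 without treated 5 alone and at 0.09 without DN 2 alone. It was at 0.15 without control 2, which is in neither group compared. miR-29c-5p had a log2 fold change of 0.03 and miR-29a-5p of −0.00, so the level of miR-29c-5p in treated libraries was close to its DN mean. Its interval, −0.44 to 0.50, includes differences as large as that between DN and control, and without DN 2 the value was −0.17. Without control 2, DN 2 and DN 3 it was −0.09 for miR-29c-5p and −0.19 for miR-29a-5p.

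Treated against control, which differ in strain, disease, germacrone and the saline that the labels name, gave the clearest separation. No member passed the edgeR test and neither did any other entry (0.0%), and at an unadjusted p under 0.05 there were 0 of 5 members against 19.5% of all entries. miR-29c-5p had a log2 fold change of −0.41 (SE 0.224, interval −0.88 to 0.06, unadjusted p = 0.0821, adjusted p = 0.326 by edgeR), and 6 of 6 treated libraries were below every control library. Such a separation in the lower direction was found for 1 of 5 members and for 1.62% of all entries, and in either direction for 5.17%. For miR-29c-5p it depended on TMM scaling. By library size alone treated 2 (323 of 3657879 counts) lay above control 1 (465 of 5326197). Without control 2, DN 2 and DN 3 the log2 fold change of miR-29c-5p was −0.44 (adjusted p = 0.0848 by edgeR), and it lay between −0.62 and −0.32 over the 31 alternative analyses run. The adjusted p over those alternatives ran from 0.0378 to 0.540.

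One alternative, limma-voom with sample weights, which gives less weight to libraries that fit poorly, called miR-29c-5p lower in both comparisons against control. The adjusted p was 0.0456 for DN against control, where that method called 14.7% of all entries, and 0.0378 for treated against control, where it called 17.1%. It called 1 of 5 members each time, a share near that of the whole table. DESeq2 called 0 of 5 members in each comparison and 0.646%, 0.0% and 3.88% of all entries in DN against control, treated against DN and treated against control. Fits on only the 2 groups compared also called 0 of 5, and 0.0%, 0.0% and 9.76% of all entries, and without DN 2 it was 0 of 5 and 0.952%, 0.0% and 1.11%. The summed kidney markers also differed between these groups, at 129109 to 199932 CPM in control and 194317 to 268488 CPM in treated libraries. The part of that difference in the miR-29c-5p result was not tested.

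The other 5p arms had the same sign in treated against control. miR-29b-1-5p had a log2 fold change of −0.86 (interval −1.53 to −0.19, unadjusted p = 0.0146, adjusted p = 0.186 by edgeR) and 6 of 6 treated libraries below the control median. miR-29b-2-5p stood at −0.35 (adjusted p = 0.555 by edgeR), also with 6 of 6 below, and miR-29a-5p at −0.02. With the other 2 arms included, 4 of 4 of the 5p arms were below 0, and the 3p arms were above 0 in 3 of 3, as were 49.8% of all entries: miR-29a-3p at 0.07, miR-29b-3p at 0.19 and miR-29c-3p at 0.26. The signs of the first 2 flipped when libraries were scaled by size alone, to −0.14 and −0.00. That scaling moved the median of all entries by −0.20. Among the 5p arms the sign of miR-29a-5p was not stable either, at −0.17 to 0.098 as each library was left out in turn. The value of miR-29a-3p was 0.16 without treated 6, the treated library with the highest leukocyte sum, and 0.03 without treated 5. Without control 2, DN 2 and DN 3 the values were 0.02 for miR-29a-3p, 0.03 for miR-29b-3p and 0.13 for miR-29c-3p, and −0.79 for miR-29b-1-5p, −0.26 for miR-29b-2-5p and −0.24 for miR-29a-5p. None of these values of the 3p arms passed the test.

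**Figure D2:**
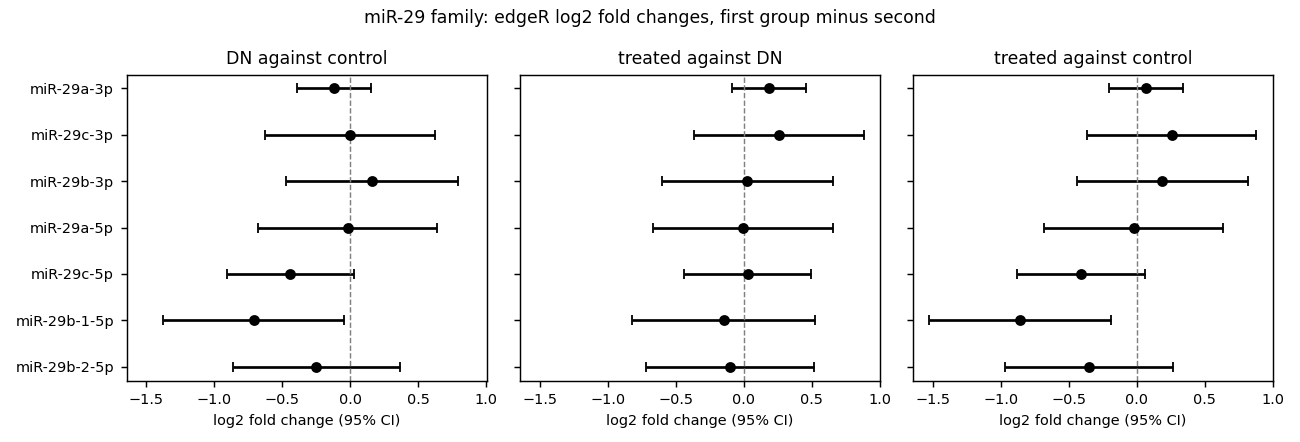
Log2 fold change from edgeR (x axis, first group minus second, point) with its 95% interval (bar) for each miR-29 entry in the 3 comparisons. The intervals of the 5 members all include 0; the values of miR-29c-5p are −0.44 and −0.41 against control and 0.03 for treated against DN.

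Ratios within a library do not depend on how libraries are scaled. For Mir29c, the log2 ratio of miR-29c-3p to miR-29c-5p was 2.86 ± 0.48 in control, 3.29 ± 0.60 in DN and 3.54 ± 0.31 in treated libraries (SD, n = 6 each). Control libraries ranged from 2.30 to 3.60 and treated libraries from 3.12 to 3.86, so the groups overlapped through control 1 and control 6. The difference of treated minus control was 0.68 (2-sided exact permutation test over 924 splits, p = 0.0173, adjusted p = 0.260 over 15 tests). It was 0.57 without control 2, DN 2 and DN 3 (exact permutation p = 0.0390, adjusted p = 0.298). DN minus control was 0.43 (exact permutation p = 0.190, adjusted p = 0.779). Without those 3 libraries it was 0.61 (exact permutation p = 0.0397, adjusted p = 0.298), but they include DN 3, the lowest DN library for this ratio. DN 3, at 2.11, was the one DN library under 3.33.

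For Mir29a, the log2 ratio of miR-29a-3p to miR-29a-5p was 9.41 ± 0.78 in control, 9.23 ± 0.49 in DN and 9.37 ± 0.33 in treated libraries (SD, n = 6 each), with differences of −0.18 for DN minus control, 0.14 for treated minus DN and −0.05 for treated minus control. The last was 0.26 without control 2, the highest library at 10.98. The 3 remaining ratios compared 3p arms. That of miR-29c-3p to miR-29b-3p was 0.78 ± 0.17 in control, 0.51 ± 0.45 in DN and 0.85 ± 0.18 in treated libraries. Treated minus DN was 0.34 for it (exact permutation p = 0.0866, adjusted p = 0.649), and 0.12 without control 2, DN 2 and DN 3. No ratio passed the adjustment over the 15 tests, whose smallest possible p was 0.0022.

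**Figure D3:**
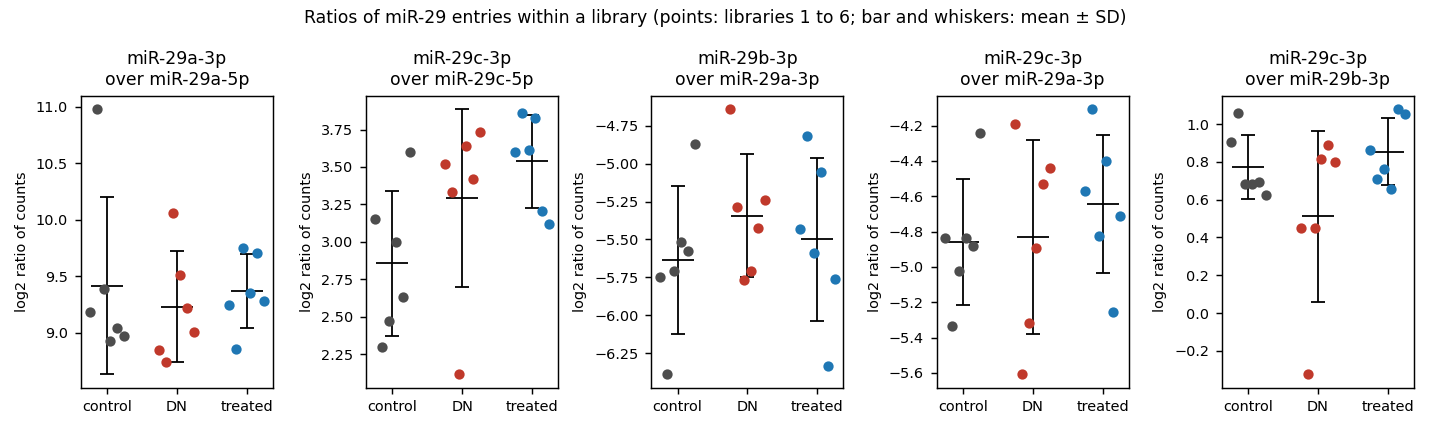
Log2 ratio of the counts of 2 miR-29 entries in the same library (y axis) for 5 pairs, by group; points are libraries 1 to 6 from left to right, with mean and SD (n = 6). For miR-29c-3p over miR-29c-5p the means are 2.86 in control, 3.29 in DN and 3.54 in treated libraries; single libraries stand apart in other panels, such as control 2 at 10.98 for miR-29a-3p over miR-29a-5p.

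Across libraries, the scarcer 3p arms varied together. Over the 18 libraries, log2 CPM of miR-29b-3p and miR-29c-3p had a Pearson r of 0.82 (permutation p = 5e-05, adjusted p = 0.00063 over 21 pairs) and a Spearman rho of 0.95 (permutation p = 1e-05, the smallest that 100000 permutations can give). Within groups r was 0.97 in control, 0.82 in DN and 0.99 in treated libraries (n = 6 each). It was 0.80 without DN 1 and control 2, the libraries farthest from the median of miR-29b-3p, and 0.95 without control 2, DN 2 and DN 3. Libraries such as control 6, DN 1 and treated 2 were high in both, and control 2 and DN 3 low in both. Both entries have values that are not whole, and the part of any reads counted toward both in the correlation was not tested.

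miR-29a-5p followed the same libraries. Its r with miR-29b-3p was 0.78 (rho 0.78, permutation p = 6e-05 and 0.0003), and 0.85, 0.84 and 0.75 within control, DN and treated libraries. Its r with miR-29c-3p was 0.62 (permutation p = 0.00877, adjusted p = 0.0368; rho 0.72, permutation p = 0.00127), and 0.75 without DN 2 and DN 3. The 5p arm has its own sequence and whole counts in all 18 libraries, and the cause of these correlations was not tested.

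The abundant miR-29a-3p went with miR-29c-3p less evenly. Their r was 0.72 over the 18 libraries (permutation p = 0.00086, adjusted p = 0.00602; rho 0.63, permutation p = 0.00586). Without DN 2 and DN 3 it was 0.38. Within groups it was 0.81 in control, 0.96 in DN and 0.22 in treated libraries (n = 6 each), so the size of the r over all 18 libraries rests in part on those DN libraries, while control libraries alone gave a high r too. With its own 5p arm the r of miR-29a-3p was 0.36 (permutation p = 0.134; rho 0.35, permutation p = 0.155). The arms of Mir29c had an r of 0.43 (permutation p = 0.079; rho 0.07, permutation p = 0.774), which was −0.04 without DN 2 and DN 3.

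The 5p arm of Mir29b-2 ran against miR-29b-3p. Their rho was −0.70 (permutation p = 0.00177, adjusted p = 0.00929) and their r −0.49 (permutation p = 0.0397, adjusted p = 0.0927), or −0.33 without DN 1 and control 2 and −0.70 without control 2, DN 2 and DN 3. Within groups r was −0.80 in control, −0.29 in DN and −0.75 in treated libraries. The r of the other b-type arm, miR-29b-1-5p, with miR-29b-3p was also −0.49 (permutation p = 0.0388, adjusted p = 0.0927; rho −0.42, permutation p = 0.0843). It was −0.16 without DN 1 and control 2, and −0.61, −0.90 and 0.08 within control, DN and treated libraries. miR-29b-2-5p was highest in DN 3 and control 2 (115 and 101 CPM), where miR-29a-5p was lowest of all. The 5p arms of both b hairpins, on separate chromosomes, had an r of 0.57 (permutation p = 0.0135, adjusted p = 0.0474; rho 0.65, permutation p = 0.00396), and 0.46 without control 2 and DN 1. miR-29b-2-5p and its chromosome 1 neighbour miR-29c-5p had an r of 0.69 (permutation p = 0.00582, adjusted p = 0.0306), and 0.37 without DN 4 and DN 2. Their rho was 0.39 (permutation p = 0.112). With group means taken out, r was 0.51 for the 5p arms of the b hairpins and 0.65 for the chromosome 1 neighbours.

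**Figure D4:**
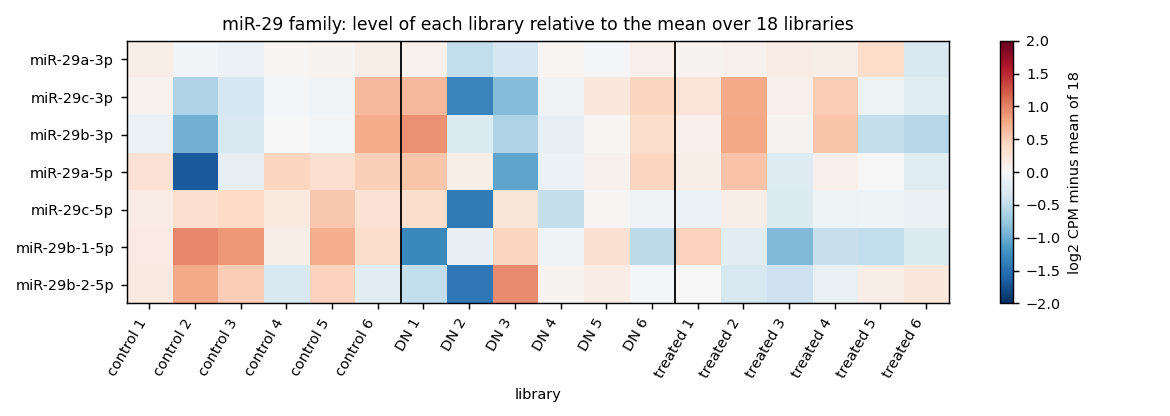
Log2 CPM of each miR-29 entry (rows) in each library (columns) minus its mean over the 18 libraries, from blue (below the mean) to red (above). Control 6, DN 1 and treated 2 are above the mean for miR-29c-3p, miR-29b-3p and miR-29a-5p together, control 2 and DN 3 are below for these and above for miR-29b-2-5p, and DN 2 is lowest for miR-29c-3p, miR-29c-5p and miR-29b-2-5p.

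The other miRNAs most like the 3p arms were found by Pearson r of log2 CPM over the 18 libraries, among 318 mouse entries with a mean of at least 10 CPM. For miR-29a-3p they were miR-126a-3p (r = 0.84), miR-26a-5p (0.82) and miR-30c-5p (0.82). For miR-29b-3p they were miR-32-5p (r = 0.91), miR-33-5p (0.88) and miR-218-5p (0.85). For miR-29c-3p they were miR-429-3p (r = 0.93), miR-582-5p (0.93) and miR-194-5p (0.91). miR-126a-3p is the endothelial miRNA, miR-429-3p belongs to the epithelial miR-200 family, and miR-194-5p is enriched in kidney. All of these values share libraries and scaling and are a description only.

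Other miRNAs reported to act on matrix build-up in kidney were set beside miR-29. Of the marker lists above, 4 kidney and 2 fibroblast and pericyte miRNAs are also on these lists. Of 14 reported to promote it, 10 were tested and 0 passed the edgeR test in any comparison. In DN against control 8 of these 10 were above 0, with a median log2 fold change of 0.36 against 0.08 over all entries, and 5 of 10 without DN 2. In treated against DN 2 of 10 were above 0, with a median of −0.42 against −0.05 over all entries, and again 5 of 10 without DN 2. In treated against control 4 of 10 were above 0. Without control 2, DN 2 and DN 3 the counts above 0 were 4, 9 and 4 of 10 in these 3 comparisons. miR-377-3p, miR-215-5p, miR-216a-5p and miR-217-5p did not pass the filter on low counts.

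Of this list, miR-21a-5p, best known as a miRNA of kidney injury and fibrosis, was at 31725 CPM in control, 78013 in DN and 72484 in treated libraries (means). Its log2 fold change was 1.30 in DN against control (adjusted p = 0.277 by edgeR) and 0.82 without DN 2, where it reached 188685 CPM. In treated against control it was 1.19 (adjusted p = 0.173 by edgeR, 6 of 6 above the control median), and without control 2, DN 2 and DN 3 it was 1.01 and passed the test (adjusted p = 0.0302 by edgeR). That fit left out libraries chosen with these data known, and 7.86% of all entries passed in it. miR-192-5p, a TGF-beta responsive kidney miRNA, stood at 0.39 in DN against control, and at 0.67 without those 3 libraries, where it passed (adjusted p = 0.0335 by edgeR), as did miR-214-3p in the other direction (−0.86, adjusted p = 0.0349 by edgeR). miR-382-5p was at 0 to 35.8 CPM, with its highest value in DN 2. While miR-21a-5p was 2.46-fold as abundant in DN as in control, miR-29a-3p was 0.920-fold as abundant; neither passed the test.

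Of 15 other miRNAs reported to restrain matrix build-up, 13 were tested and 0 passed the edgeR test in any comparison. miR-133b-3p did not pass the filter, and miR-101a-3p was not in the table of counts. Above 0 were 6 of 13 in DN against control, 10 of 13 in treated against DN and 8 of 13 in treated against control, and without control 2, DN 2 and DN 3 they were 7, 11 and 9 of 13. let-7b-5p, reported to target a TGF-beta receptor, was at 16863 to 31807 CPM in control and 10849 to 15318 CPM in treated libraries, which did not overlap. Its log2 fold change was −0.79 (adjusted p = 0.148 by edgeR). It passed without control 2, DN 2 and DN 3, at −0.70 (adjusted p = 0.0151 by edgeR), as did let-7c-5p, miR-30a-5p, miR-30e-5p and miR-133a-3p. miR-200b-3p, an epithelial miRNA that restrains the Zeb factors, stood at −0.07 in DN against control and 0.16 in treated against control. Without those 3 libraries let-7b-5p (−0.69) and miR-193a-3p (−0.87) also passed in DN against control (adjusted p = 0.0249 and 0.0461 by edgeR), while 0 of the 5 miR-29 members did so in any comparison, where 8.02%, 0.0% and 7.86% of all entries passed in DN against control, treated against DN and treated against control.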

How the data were processed

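Small RNA libraries from 18 mouse kidney samples were made with Trizol RNA and a TruSeq kit and sequenced on a HiSeq, and reads were filtered with ACGT101-miR, per the labels' protocols. Trimmomatic 0.32, BWA, SAMtools and edgeR are named in the submitters' processing notes; which genome build and which version of miRBase they used was not given in the sources used here. Deposited raw columns hold estimated counts (75.7% of values above 0 whole within 1e-06), and the deposited normalized columns hold a signal, that is the raw value multiplied by a library factor of 0.664 to 1.43. The signal entered only through these factors, as an alternative scaling. Unnamed entries (350, at most 0.148% of a library's counts) were left out.

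Counts were rounded and fitted with edgeR 4.0.16 (R 4.3.3) on all 18 libraries with group as the only factor: filterByExpr (minimum count 10, minimum total 15; 619 entries kept, 565 removed, 99.97% of counts kept), TMM scaling, the quasi-likelihood test (2-sided, legacy method, non-robust prior) and Benjamini-Hochberg adjustment at 0.05. Log2 CPM used a prior count of 2. Ratios were tested by exact permutation and correlations by 100000 permutations (numpy 2.4.6, with ranks from scipy 1.17.1). The alternative analyses used DESeq2 1.42.0, limma-voom 3.58.1 with sample weights, RLE factors, scaling by library size, no low-count filter or one of 10 CPM in 6 libraries, a replicate block, only the 2 groups compared, identical copies removed, the robust prior, the edgeR 4 method, control 2, DN 2 and DN 3 left out, and each library left out in turn; the authors' factors were added after seeing the data. Chi-square divided by its degrees of freedom was at least 60.9 in the 45 library pairs within groups, so no pair agreed within counting noise. Scripts were tested on simulated data.

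The family members, lists, alternatives and tests were chosen with earlier results of these data known. Named were the members, the other 5p arms, the 3 entries most like each 3p arm, any matrix-list entry past the threshold and always miR-21a-5p, miR-192-5p, miR-377-3p, miR-382-5p, miR-200b-3p and let-7b-5p; miR-214-3p, miR-193a-3p, let-7c-5p, miR-30a-5p, miR-30e-5p and miR-133a-3p were named after their values were seen.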

Additional observations from a re-analysis of the deposited data

Results flagged for a closer look

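Within each group of 6 libraries the highest and lowest values of each miR-29 level and ratio were examined for a gap to the rest above Dixon's 95% critical value of 0.625. Of 36 such groups, 4 held a value this far out, and chance gives about 5%. Treated 1 was at 10.93 CPM for miR-29b-1-5p, against 4.08 to 6.60 in the other treated libraries. Control 2 had a log2 ratio of miR-29a-3p to miR-29a-5p of 10.98, against 8.93 to 9.39 in the other control libraries. DN 3 had a log2 ratio of miR-29c-3p to miR-29c-5p of 2.114, the other DN libraries lying at 3.33 to 3.73. DN 2 had a log2 ratio of miR-29c-3p to miR-29b-3p of -0.3254, the other DN libraries lying at 0.45 to 0.89. The last 3 are the libraries whose correlation with their own group was lowest.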

How the results depend on the processing

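The count of miR-29 members past the threshold was 0 in the 3 comparisons under every alternative but 1: limma-voom with sample weights gave 1 (miR-29c-5p) in DN against control and 1 in treated against control. The log2 fold change of miR-29c-5p was below 0 in both comparisons against control under every alternative, each left-out library included. Other values changed sign, as follows, most of them near 0; the exception in size was miR-382-5p in treated against DN, at -1.39 with all libraries. The cause was not tested.

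In DN against control, miR-29c-3p was at 0.02 without a filter, 0.20 by limma-voom, 0.0496 with only the 2 groups and 0.22 without control 2, DN 2 and DN 3. miR-29a-5p was at 0.00012 with 10 CPM in 6 libraries, 0.0373 with only the 2 groups, 0.0043 by the edgeR 4 method and 0.00071 with the authors' factors. miR-382-5p was at -0.0062 without a filter, -1.31 by limma-voom, -0.20 with the replicate block and -1.46 without the 3 libraries. miR-200b-3p was at 0.078 by limma-voom and 0.079 without the 3 libraries.

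In treated against DN, miR-29b-3p was at -0.0036 with RLE factors, -0.089 by library size, -0.027 with 10 CPM in 6 libraries, -0.0036 by DESeq2, -0.0039 by limma-voom, -0.026 with only the 2 groups, -0.20 without the 3 libraries and -0.018 with the authors' factors. miR-29c-5p was, in the same order but without limma-voom, at -0.0031, -0.086, -0.0044, -0.0010, -0.027, -0.087 and -0.010. miR-29a-5p was at 0.0071 without a filter, 0.065 with the replicate block, 0.0096 without copies and 0.0020 by the edgeR 4 method. Without the 3 libraries miR-29c-3p was at -0.087, miR-29b-1-5p at 0.025, miR-21a-5p at 0.17, miR-192-5p at -0.28 and miR-382-5p at 0.34, and by limma-voom miR-21a-5p was at 0.14 and miR-192-5p at -0.19.

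In treated against control, scaling by library size gave -0.14 for miR-29a-3p, -0.0029 for miR-29b-3p and -0.056 for miR-200b-3p, and miR-29a-5p was at 0.023 with the replicate block and 0.0063 by the edgeR 4 method. The log2 ratio of miR-29a-3p to miR-29a-5p differed by 0.0019 (difference of medians) and 0.044 (without the 3 libraries) in DN against control, and by 0.20 and 0.26 in treated against control. Without the 3 libraries the difference was -0.039 for miR-29c-3p to miR-29c-5p and -0.13 for miR-29c-3p to miR-29a-3p (treated against DN), -0.015 for miR-29b-3p to miR-29a-3p (treated against control) and 0.019 for miR-29c-3p to miR-29b-3p (DN against control).

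Leaving out each library in turn changed signs over these ranges. For DN against control: miR-29a-5p -0.14 to 0.13, miR-29c-3p -0.067 to 0.17, miR-200b-3p -0.12 to 0.10, miR-382-5p -1.31 to 0.79. For treated against DN: miR-29a-5p -0.18 to 0.068, miR-29b-2-5p -0.34 to 0.17, miR-29b-3p -0.15 to 0.18, miR-29c-5p -0.17 to 0.098, miR-21a-5p -0.36 to 0.37, miR-192-5p -0.092 to 0.28, miR-382-5p -2.02 to 0.043. For treated against control: miR-29a-5p -0.17 to 0.098. Ratio differences ran from -0.35 to 0.13 (miR-29a-3p to miR-29a-5p, DN against control), -0.15 to 0.26 (same, treated against control), -0.29 to 0.012 and -0.015 to 0.30 (miR-29b-3p to miR-29a-3p, treated against DN and against control) and -0.098 to 0.19 (miR-29c-3p to miR-29a-3p, DN against control).

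Counts over the whole table depended on the method: DESeq2 called 4, 0 and 24 entries in DN against control, treated against DN and treated against control, only the 2 groups compared gave 0, 0 and 56, and the edgeR 4 method gave 6, 0 and 3. Without DN 2 the counts were 6, 0 and 7, without DN 3 they were 6, 0 and 3, and without control 2, DN 2 and DN 3 they were 51, 0 and 50, against 0 in each with all libraries. limma-voom gave 91, 0 and 106. The 10 CPM filter gave 2 and leaving out control 2 gave 1, in DN against control only. Replicate numbers did not pair the libraries: deviations of same-numbered libraries correlated at -0.28 to 0.28 in 18 pairs, and 1 of 18 libraries correlated best with its own number. With the replicate block, 0 members passed, and the treated minus control difference of miR-29c-3p to miR-29c-5p had an exact paired permutation p of 0.0938. The low counts of miR-29b-1-5p and miR-29a-5p limit what small differences of these arms can show.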
